A study of Homo sapiens with 6 samples.

Results

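Collagen chain genes were examined in MDA-MB-231 cells, a human triple-negative breast cancer line, after knockdown of the long noncoding RNA MIR100HG. The members were all genes of the count table whose symbol has the form COL, number, A, number, which gave 44 of 27745 genes: 11 fibrillar, 9 network-forming, 10 FACIT (fibril-associated collagens with interrupted helices) and 14 other chains. RNA-seq was performed on cells infected with lentivirus carrying a pLKO.1 hairpin: a control hairpin (sh-TRC) or either of 2 hairpins against MIR100HG (sh-MIR100HG-1 and sh-MIR100HG-2). Each of the 3 groups had 2 replicates, named here TRC-1, TRC-2, KD1-1, KD1-2, KD2-1 and KD2-2, and values for 6 samples are given in that order. All groups came from 1 cell line and all carried an integrated hairpin vector, the controls included, and uninfected cells were not analysed here.

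Collagens are extracellular proteins in which 3 chains wind into a triple helix along a short repeat that begins with glycine. Fibrillar collagens such as I, III and V form the fibrils that give connective tissue its tensile strength, whereas collagen IV forms the sheet-like network of basement membranes. FACIT collagens attach to fibrils, collagen VI forms beaded microfilaments, collagen VII anchors epithelium to the stroma, collagens XIII and XVII span the plasma membrane, and collagens XV and XVIII are basement-membrane proteoglycans. Most collagen in a breast tumor is made by fibroblasts, and carcinoma cells also produce some chains themselves.

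MIR100HG hosts let-7a-2, miR-100 and miR-125b-1, and miR-29 is widely known for targets among collagen mRNAs. The mature sequences, taken from RefSeq, and the antisense arms of both hairpins are shown because their seeds (bases 2 to 8, in capitals) define the sites counted in the 3′UTRs of the collagen genes. The 3 members of the miR-29 family share 1 seed.
hsa-let-7a-5p: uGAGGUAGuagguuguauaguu
hsa-miR-100-5p: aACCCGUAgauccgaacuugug
hsa-miR-125b-5p: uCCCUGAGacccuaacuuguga
hsa-miR-29a-3p: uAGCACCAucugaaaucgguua
hsa-miR-29b-3p: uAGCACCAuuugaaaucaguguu
hsa-miR-29c-3p: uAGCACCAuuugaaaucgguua
sh-MIR100HG-1 antisense arm: aTTTAAGTacaaacagaggaa
sh-MIR100HG-2 antisense arm: tTTATTCTgtaggtcactctc

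A perfect 7-base match to the let-7 seed (CTACCTC, on the transcribed strand) was found in the 3′UTR of 10 of the 44 collagen genes (22.7%), against 10.8% of the 13901 tested genes with an annotated 3′UTR. Fibrillar chains hold 6 of these 10 sites. Of the sites in chains that passed the filter on low counts, 8 are printed with 30 bases of surrounding 3′UTR (GRCh37), the match in capitals, because they lie in both chains of collagen I and in several chains whose levels are described below.
COL1A1 at chr17:48262068-48262074, minus strand: gttgctgaaagaCTACCTCgttcttgtctt
COL1A2 at chr7:94060083-94060089, plus strand: caaaggtttaaaCTACCTCaaaacactttc
COL3A1 at chr2:189876908-189876914, plus strand: tccctattttaaCTACCTCaactggtcaga
COL5A2 at chr2:189897739-189897745, minus strand: tcttagcatgagCTACCTCatctctagaag
COL24A1 at chr1:86195738-86195744, minus strand: gccggtgatacaCTACCTCttacgtgttgc
COL27A1 at chr9:117073558-117073564, plus strand: tgcccacgtttgCTACCTCccactgtgaaa
COL4A4 at chr2:227869355-227869361, minus strand: tgctttggatggCTACCTCctctttagccc
COL4A6 at chrX:107399959-107399965, minus strand: gactattcatggCTACCTCagaaagatttg

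The miR-29 match (TGGTGCT) was the most frequent of those searched, present in 28 of the 44 collagen genes (63.6%) against 15.8% of all genes, with 41 sites in all. It occurred in every class. Examples are printed for chains of collagen I, IV, VI, VII and XV, the types whose levels are compared below.
COL1A1 at chr17:48261934-48261940, minus strand: ggagggaatcacTGGTGCTatagaaattga
COL4A1 at chr13:110802674-110802680, minus strand: aatgtcacaacaTGGTGCTacttcttcttc
COL4A2 at chr13:111164566-111164572, plus strand: gaagggccatttTGGTGCTtattcttaact
COL6A2 at chr21:47552516-47552522, plus strand: ccaccccgtccaTGGTGCTaagcgggcccg
COL7A1 at chr3:48601756-48601762, minus strand: tgtccctcccctTGGTGCTagaggcttgtg
COL15A1 at chr9:101832379-101832385, plus strand: tgatccatatatTGGTGCTagattctgcag

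Over all 44 collagen genes, untested chains included, the shares of the other matches lay nearer to those of all tested genes. That of miR-100 (TACGGGT) was in 0 of 44 against 1.28% of all genes, and that of miR-125b (CTCAGGG) in 7 of 44 (15.9%) against 16.1%, including COL5A1, COL4A2 and COL18A1. Matches to the sh-MIR100HG-1 arm (ACTTAAA) lay in 9 of 44 (20.5%) against 19.2%, and those to the sh-MIR100HG-2 arm (AGAATAA) in 7 of 44 (15.9%) against 20.3%. Of the 30 tested chains alone, 30.0% held the let-7 match, 63.3% that of miR-29 and 13.3% that of miR-125b. The arms then stood further below all genes, at 13.3% for sh-MIR100HG-1 (4 chains) and 6.67% for sh-MIR100HG-2 (2 chains). Median 3′UTR length was 1122 bases over the 44 collagen genes and 1278 over all tested genes. A match is a description of the letters in the 3′UTR, the 7-base matches were counted in 1 transcript per gene, and mature microRNA levels were not analysed here.

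**Figure D1:**
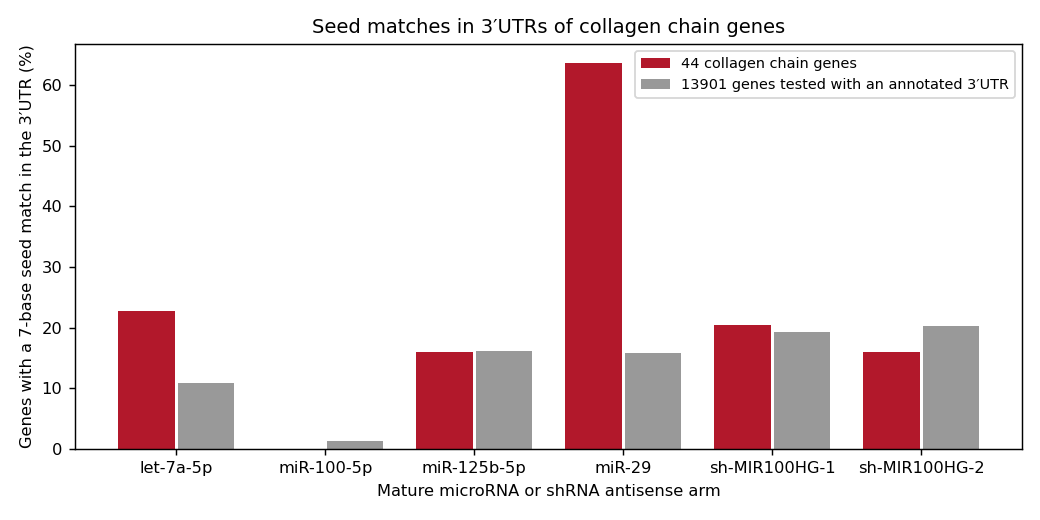
Percentage of genes (y axis) with a 7-base seed match in the 3′UTR for each microRNA or hairpin arm (x axis), in 44 collagen chain genes (red) and 13901 tested genes (grey). The miR-29 match stands at 63.6% against 15.8%, and that of let-7 at 22.7% against 10.8%.

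MIR100HG itself was at 41.8, 58.5, 15.2, 13.2, 16.6 and 10.4 CPM (counts scaled to TMM-normalized library size), lower in all 4 knockdown samples than in both controls. Total counts ranged from 43804736 to 64588388 per sample. The line's markers VIM, CD44, AXL and KRT18 summed to between 3718 and 4684 CPM, PGR was at or near 0 counts in every sample, and ERBB2 lay between 71.6 and 116 CPM. ESR1 was at 0.186, 2.38, 2.79, 0.590, 0.154 and 0.120 CPM, highest in TRC-2 and KD1-1. Of 7 fibroblast markers, DCN, FAP, THY1 and POSTN were below 1 CPM in every sample. PDGFRB lay between 6.26 and 19.01 CPM, LUM between 0.544 and 2.93 CPM, and PDGFRA was at 2.41 CPM in TRC-2, 3.27 CPM in KD1-1 and at most 0.223 CPM in the other 4. The list summed to 13.8 and 22.4 CPM in the controls and to between 9.49 and 22.0 CPM in the knockdown samples. The endothelial markers CDH5 and VWF were below 1 CPM throughout. In bulk RNA, fewer cells expressing a gene and less RNA per cell cannot be told apart.

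TRC-2 and KD1-1 shared signal that the other 4 libraries did not hold. In that pair, 61 genes were above 1 CPM in both libraries and below 0.1 CPM in the other 4, whereas the other 14 pairs of libraries gave 0 such genes each. KIT, for example, had 7.17 CPM in TRC-2, 7.44 CPM in KD1-1 and 0 counts in the other 4 libraries. COL22A1, a FACIT chain, was the only collagen gene among them, with 1, 398, 408, 0, 0 and 0 counts. It was removed by the filter on low counts and is not among the 30 chains tested, but it is among the chains that passed without the filter in 3 of the comparisons below. What gave rise to the shared signal was not tested. Counts of collagen genes at an unadjusted p under 0.05 are therefore also given without both libraries.

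Of the 44 collagen chain genes, 30 had enough counts to be tested: 9 fibrillar, 8 network, 5 FACIT and 8 other chains. The filter removed the other 14, of which COL9A1 and COL14A1 had 0 counts in every sample. Besides COL22A1, the removed chains were COL2A1, the cartilage collagen, COL5A3, COL4A3, COL19A1, COL21A1, COL6A5, COL6A6, COL23A1, COL25A1, COL26A1 and COL28A1. Among these the highest count in any sample was 28, for COL4A3 in TRC-1. In all, 16 chains had a mean above 10 CPM, and 14 had a mean above 1000 counts.

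Levels were compared between genes as CPM per kilobase of summed exon length. COL6A1, which encodes the α1 chain of collagen VI, had the highest level, with 61.3, 150.2, 54.2, 49.4, 115 and 81.2 CPM per kilobase. It was above the next chain, COL13A1, in 6 of 6 samples, and their ranges did not overlap. COL13A1, a transmembrane collagen of cell adhesion sites, ranged from 27.1 to 45.2 CPM per kilobase. It was followed by COL5A1 (20.5 to 38.6), which encodes a chain of the fibrillar collagen V that sets fibril diameter, and by COL4A2 (21.8 to 36.6), a basement membrane chain. Next came COL18A1 (9.45 to 24.4), the precursor of the fragment endostatin, COL8A1 (8.63 to 19.6), a short-chain network collagen, COL6A2 (6.12 to 25.2) and COL4A1 (7.02 to 16.5). Below COL6A1, each of these chains overlapped in range with the next in the order. These 8 chains made up between 80.6% and 89.0% of the summed level of all 44 chains.

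**Figure D2:**
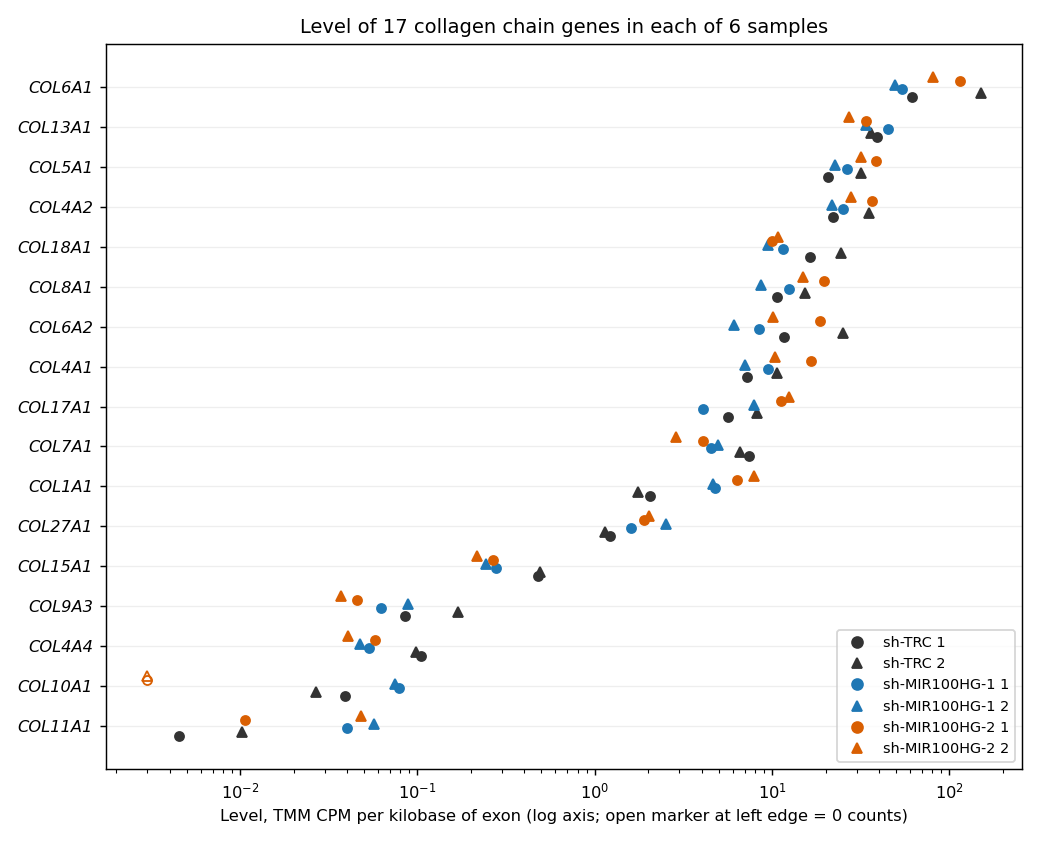
Level of the 17 collagen chain genes described by sample, in TMM CPM per kilobase of exon (x axis, log scale), ordered by mean level (y axis), with 1 marker per sample colored by hairpin group. COL1A1 lies to the right of both controls in all 4 knockdown samples, COL18A1, COL7A1 and COL15A1 lie to the left, and COL10A1 has 0 counts in both sh-MIR100HG-2 samples.

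The summed level of the 44 chains was 227.7, 369.5, 228, 197, 330.2 and 255 CPM per kilobase, and the groups overlapped. Fibrillar chains made up 10.96%, 9.60%, 14.7%, 15.7%, 14.4% and 16.8% of this sum, with all 4 knockdown samples above both controls. The network share was also above both controls in all 4 knockdown samples, at 18.6% and 17.1% in the controls and 19.7% to 22.7% after knockdown. The other chains together held 63.3% and 69.6% in the controls and 57.2% to 59.7% after knockdown, below both controls, and FACIT chains held 3.21% to 7.49% with overlapping groups. Within the other chains, the multiplexins COL15A1 and COL18A1 held 7.42% and 6.74% of the sum in the controls and 3.11% to 5.17% after knockdown, whereas the share of the beaded filament chains (28.4% to 49.1%) overlapped. Shares within a sum move together, so these are 1 description and not separate results.

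**Figure D3:**
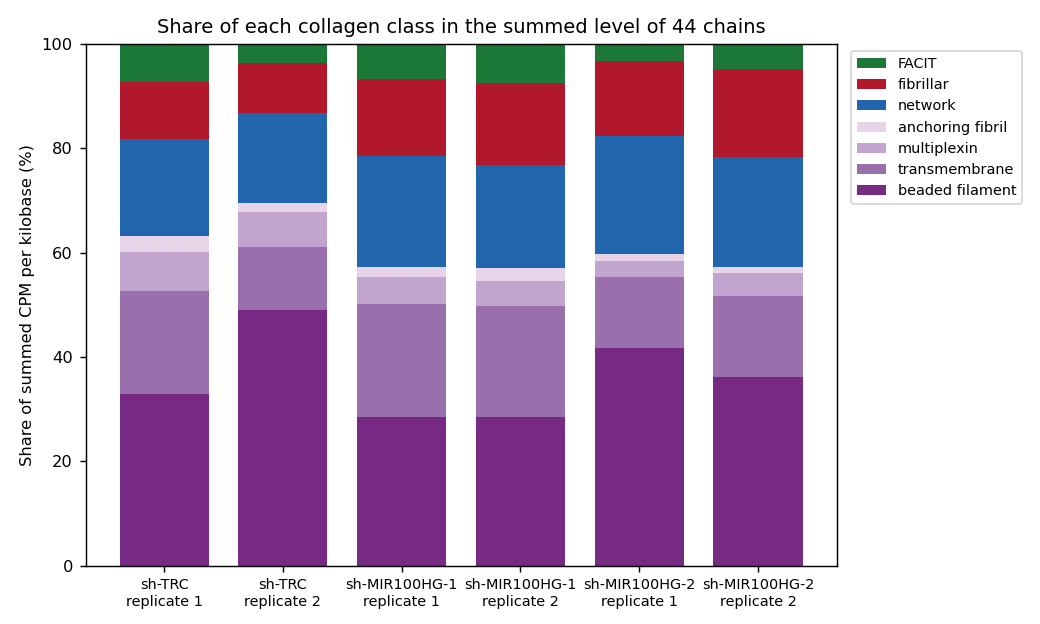
Share of each collagen class in the summed CPM per kilobase of 44 chains (y axis, percent) in each of the 6 samples (x axis); the chains COL26A1 and COL28A1, at most 0.0102% together, are not drawn. The fibrillar share is 9.60% to 10.96% in the sh-TRC samples and 14.4% to 16.8% in the 4 knockdown samples.

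Knockdown was compared with control as the mean of both hairpin groups against sh-TRC, to ask which chains changed when MIR100HG was reduced. No chain passed an adjusted p of 0.05 in edgeR's quasi-likelihood test, as for 0.00% of the 15372 genes tested, so none of the differences below passed the test. The call depended on the tool and the filter. COL1A1 and COL18A1 passed the same threshold with DESeq2 (adjusted p = 8.01e-09 and 0.0285), where 129 of the 15372 genes given to it passed. DESeq2 was run with its default adjustment, which left some of these genes out. Both chains also passed with edgeR's likelihood ratio test (4.22e-06 and 0.0223), where 109 of 15372 genes passed. Without the filter on low counts 5 chains passed, COL22A1 among them, and 392 of 21349 genes. At an unadjusted p under 0.05 there were 9 of 30 chains (30.0%), against 7.68% of all genes. COL1A1, COL11A1 and COL27A1, all fibrillar, were higher (3 of 30, against 3.23% of all genes). COL11A1 passed the filter through KD1-1, KD1-2 and KD2-2 (22, 20 and 20 counts) and TRC-2 (5 counts). Its place among the higher chains was thus partly set by the filter. COL4A4, COL10A1, COL6A2, COL7A1, COL15A1 and COL18A1 were lower (6 of 30, against 4.44%). The median log2 fold change (log2FC) over the 30 chains was -0.41, against -0.04 over all genes tested, with 9 chains above 0 and 21 below. Over all genes, 7017 were above 0 and 8355 below. COL10A1 stood among the lower chains through sh-MIR100HG-2 alone, where it had 0 counts (fitted log2FC -5.75). In sh-MIR100HG-1 its log2FC was 1.21. Holding COL10A1 at a bound of 3 counts per library in sh-MIR100HG-2 gave a median of -0.32.

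The count of chains at an unadjusted p under 0.05 depended on single libraries. Without TRC-2 it was 4 chains, and without KD1-2 or without KD2-2 it was 5. Leaving out TRC-2 and KD1-1 together, chosen after the data were seen, gave 8 chains, of which COL1A1, COL27A1, COL7A1 and COL18A1 were also in the count with all samples. All 4 knockdown samples lay above both controls for 3 chains (COL1A1, COL11A1 and COL27A1), as for 8.40% of all genes. They lay below both for 5 chains (COL4A4, COL4A6, COL7A1, COL15A1 and COL18A1), as for 9.08%. For COL11A1 this rests on 0.088 CPM in KD2-1 against 0.085 CPM in TRC-2, from 4 and 5 counts.

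**Figure D4:**
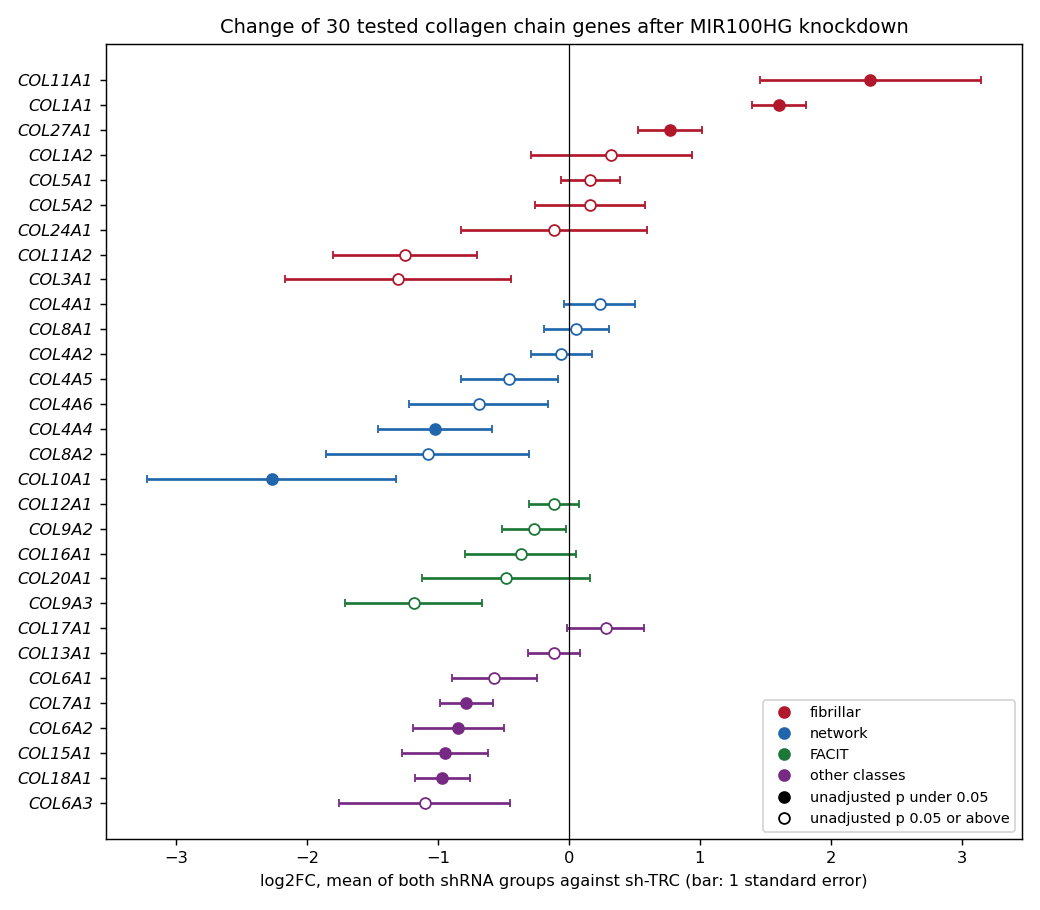
Log2FC of the 30 tested collagen chain genes (x axis) for the mean of both MIR100HG hairpin groups against sh-TRC, with bars of 1 standard error, by gene and class (y axis). Filled markers have an unadjusted p under 0.05: 3 fibrillar chains lie above 0, and 2 network and 4 other chains lie below 0. Of these, COL11A1 rests on 2 to 22 counts per sample.

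Among the fibrillar chains, COL1A1 had the smallest p of all 15372 genes in the knockdown comparison. It encodes the α1 chain of collagen I, the main collagen of bone, skin and tumor stroma (ENSG00000108821.13_2, chr17:48260650-48278993, minus strand of GRCh37). Its CPM was 20.2, 17.2, 46.5, 45.5, 62.6 and 78.0, on a mean of 2310 counts. All 4 knockdown samples were above both controls, and both KD2 samples were above both KD1 samples. The group means were 18.7 ± 2.11 CPM for sh-TRC, 46.0 ± 0.744 CPM for sh-MIR100HG-1 and 70.3 ± 10.9 CPM for sh-MIR100HG-2 (SD, n = 2 each). The knockdown difference was 3.04-fold, a log2FC of 1.60 ± 0.21 (SE) with an adjusted p of 0.381 in edgeR's quasi-likelihood test. The exact two-sided permutation test of 4 against 2 samples gave p = 0.0667, the smallest this design can give. It was read because all 4 knockdown samples lay above both controls, as for 8.40% of all genes, so it is not separate support. Leaving out each library in turn kept the log2FC between 1.49 and 1.72, and without TRC-2 and KD1-1 together it was 1.49.

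COL1A2, whose product joins the product of COL1A1 in the collagen I heterotrimer, was at 3.87, 2.99, 2.68, 7.60, 1.32 and 5.87 CPM, with KD1-2 and KD2-2 highest and overlapping groups. Its log2FC was 0.32 ± 0.61 (SE, adjusted p = 0.931 by edgeR). The ratio of COL1A1 to COL1A2 per kilobase was 5.93, 6.54, 19.7, 6.80, 53.8 and 15.1. The knockdown ratios were all above the controls, but they spanned a wide range. The exact permutation test did not separate the group means (p = 0.40, two-sided). It used unlogged ratios, in which KD2-1 weighs most, so this p depends on the scale. Both genes hold a let-7 and a miR-29 match (printed above for COL1A1), and COL1A1 also holds a match to the sh-MIR100HG-2 arm.

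COL27A1 encodes a fibrillar chain of cartilage (chr9:116917840-117074791, plus strand). It was at 17.0, 15.9, 22.3, 35.2, 26.6 and 28.1 CPM, with all 4 knockdown samples above both controls and no separation between the hairpins. The log2FC was 0.77 ± 0.24 (SE, adjusted p = 0.545 by edgeR), and it stayed between 0.59 and 0.92 when each library was left out. COL11A1, a minor fibrillar chain known from carcinoma-associated fibroblasts, had 2, 5, 22, 20, 4 and 20 counts. KD2-1 had fewer counts than TRC-2, although its CPM was slightly above (0.088 against 0.085). The log2FC was 2.30 ± 0.84 (SE, adjusted p = 0.606 by edgeR), and of the 4 samples at or above the filter's 5 counts, 3 were knockdown samples. Its partner COL11A2 was at 2.03, 0.645, 0.617, 0.543, 0.397 and 0.679 CPM, with TRC-1 apart from the other 5 samples. COL11A2 went the other way, with a log2FC of -1.25 ± 0.55 (SE, adjusted p = 0.652 by edgeR).

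COL5A1, the most abundant fibrillar chain, was at 229.9, 356.7, 297, 251.7, 432 and 353 CPM. The groups overlapped, with a log2FC of 0.16 ± 0.23 (SE, adjusted p = 0.901 by edgeR). Its partner COL5A2 was far lower, at 1.63 to 3.73 CPM, and the ratio of COL5A1 to COL5A2 per kilobase ran from 60.5 to 169.5 with overlapping groups. COL3A1 had at most 37 counts, in TRC-1, and 2 and 3 counts in KD1-2 and KD2-2. COL24A1 had 2 to 26 counts.

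Network chains include the basement membrane collagen IV, whose 6 genes lie in 3 head-to-head pairs. The chains COL4A1 and COL4A2, which form its common heterotrimer, start next to each other on chromosome 13. COL4A1 was at 59.1, 87.7, 77.8, 57.5, 135 and 85.5 CPM, and COL4A2 at 192.7, 304.9, 217, 189.5, 318 and 243.5 CPM. The groups overlapped for both, and KD2-1 was highest and KD1-2 lowest for both. The log2FC was 0.23 ± 0.27 for COL4A1 and -0.06 ± 0.23 for COL4A2 (SE, adjusted p = 0.878 and 0.973 by edgeR), and without TRC-2 that of COL4A2 was 0.31. Per kilobase, COL4A2 was above COL4A1 by a factor of 2.21 to 3.27.

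The minor chains of collagen IV were much lower. COL4A4, a chain of the glomerular basement membrane, was at 1.04, 0.968, 0.527, 0.472, 0.573 and 0.399 CPM, on 20 to 57 counts. All 4 knockdown samples were below both controls, with a log2FC of -1.02 ± 0.43 (SE, adjusted p = 0.642 by edgeR). Its head-to-head partner COL4A3, on the opposite strand 451 bases away, had 28 counts in TRC-1 and 3 to 7 in the other samples and was not tested. COL4A5 was at 14.9, 15.2, 10.8, 9.92, 17.3 and 6.09 CPM with overlapping groups, and its partner COL4A6 was at 0.875, 1.19, 0.256, 0.803, 0.771 and 0.799 CPM, below both controls in all 4 knockdown samples.

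Collagen VIII is a short-chain collagen of vessel walls. COL8A1 was at 99.98, 144, 117, 81.2, 185 and 140.5 CPM, with overlapping groups (log2FC 0.06 ± 0.25, SE, adjusted p = 0.974 by edgeR). With library totals alone in place of TMM its log2FC was -0.01, so its direction against control was not fixed by these data. COL8A2 was at 1.19, 0.798, 0.753, 0.0944, 0.815 and 0.200 CPM, with KD1-2 and KD2-2 below the other 4 samples. COL10A1, the collagen of hypertrophic cartilage, had 8, 6, 20, 12, 0 and 0 counts. It was higher than both controls in the KD1 samples and without a count in the KD2 samples. With 3 counts per library taken as the most that a count of 0 allows, the sh-MIR100HG-2 mean was 1.99-fold lower than the control mean. It was then 4.64-fold lower than the sh-MIR100HG-1 mean. These folds cover counting error only, and they take each count as 1 independent read and the other means as exact. All COL10A1 counts were even and the counting of read mates is not given, so the folds are not firm lower limits. An unnamed gene on the opposite strand shares 11.5% of its exon bases, so its few reads are uncertain.

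**Figure D5:**
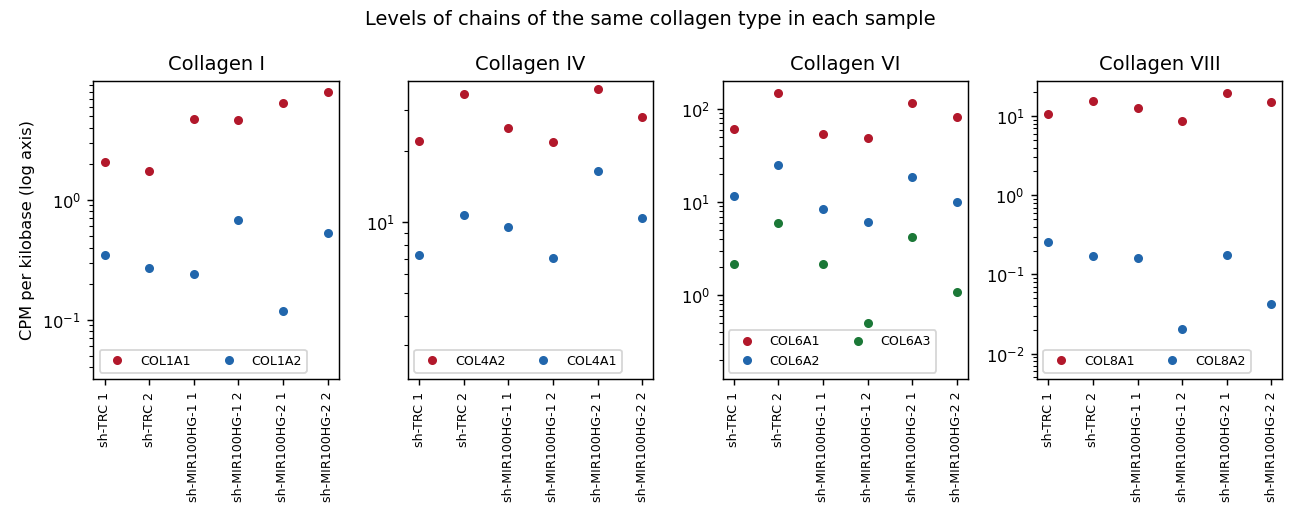
Level of partner chains of collagen I, IV, VI and VIII in CPM per kilobase (y axis, log scale) in each of the 6 samples (x axis), 1 point per chain and sample. COL6A3 and COL8A2 are lowest in the second replicates of both hairpins, while COL1A1 is above the controls in all 4 knockdown samples and COL1A2 is not.

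FACIT chains showed 0 of 5 at an unadjusted p under 0.05, too few chains to set apart from the 7.68% of all genes. All 5 had a log2FC below 0, from -1.19 to -0.12, as had 8355 of the 15372 genes. COL12A1, which decorates fibrils in tissues under tension, was the most abundant of the class. It was at 145, 111.5, 133, 139.5, 97.9 and 108 CPM, with overlapping groups and a log2FC of -0.12 ± 0.19 (SE, adjusted p = 0.917 by edgeR). COL9A2, a chain of the cartilage collagen IX, was at 17.9, 13.5, 14.7, 13.5, 10.1 and 14.3 CPM. COL9A3 had 22, 48, 20, 18, 10 and 9 counts (log2FC -1.19 ± 0.52, SE, adjusted p = 0.658 by edgeR), while COL9A1, the third chain of that collagen, had 0 counts in every sample. COL16A1 lay between 1.06 and 2.85 CPM, and COL20A1 had 3 to 22 counts.

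Collagen VI was the most abundant type, and its chains differed more between the controls than between knockdown and control. COL6A1 was at 328, 802, 289.6, 264, 614 and 434 CPM, so that TRC-2 was the highest sample and TRC-1 lay within the knockdown range. The log2FC was -0.57 ± 0.33 (SE, adjusted p = 0.718 by edgeR), and without TRC-2 it was 0.22. COL6A2 was at 62.5, 136, 45.6, 33.0, 100.4 and 54.8 CPM, a log2FC of -0.85 ± 0.35 (SE, adjusted p = 0.642 by edgeR) that was -0.18 without TRC-2. COL6A3 was at 42.8, 116, 42.4, 9.92, 82.7 and 21.6 CPM, with KD1-2 and KD2-2 below the other 4 samples. The ratio of COL6A1 to COL6A2 per kilobase was 5.29 and 5.95 in the controls and 6.17 to 8.07 after knockdown, above both controls in each sample (exact permutation p = 0.133, two-sided). COL6A1 to COL6A3 was 97.8 in KD1-2 and 73.8 in KD2-2, against 25.1 to 28.1 in the other 4 samples.

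Among the remaining chains, COL18A1 and COL7A1 had the smallest p-values. COL18A1 (ENSG00000182871.14_2, chr21:46825052-46933634, plus strand) was at 139.9, 208, 98.2, 80.5, 85.2 and 91.7 CPM. All 4 knockdown samples were below both controls, and the hairpins gave like values, with means of 89.4 ± 12.5 and 88.5 ± 4.55 CPM against 174 ± 48.1 CPM (SD, n = 2 each). The difference was 1.96-fold lower, a log2FC of -0.97 ± 0.21 (SE, adjusted p = 0.439 by edgeR), which ranged from -1.23 to -0.65 when each library was left out. The exact permutation test gave the smallest possible p of 0.0667. That test was read because all 4 knockdown samples lay below both controls, as for 9.08% of all genes, so it is not separate support. SLC19A1 on the opposite strand shares 16.4% of the exon bases of COL18A1, and the strand setting of the counting is not given in the sources used here.

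COL7A1, the anchoring fibril chain (ENSG00000114270.16_2, chr3:48601506-48632700, minus strand), was at 81.8, 73.6, 50.3, 55.3, 45.3 and 32.0 CPM. All 4 knockdown samples were below both controls, and the difference was 1.72-fold lower (log2FC -0.78 ± 0.20, SE, adjusted p = 0.447 by edgeR), between -0.92 and -0.68 when each library was left out. COL15A1, which links basement membranes to the matrix beneath, was at 3.16, 3.26, 1.85, 1.63, 1.76 and 1.44 CPM, again below both controls in all 4 samples. Its log2FC was -0.94 ± 0.33 (SE, adjusted p = 0.578 by edgeR). COL13A1 was at 225, 208, 261, 195, 194.5 and 156 CPM, with overlapping groups and a log2FC of -0.12 ± 0.20 (SE, adjusted p = 0.923 by edgeR).

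Each hairpin was also compared with sh-TRC on its own. The 2 comparisons share the control samples, so they are not independent. In sh-MIR100HG-1 0 chains passed an adjusted p of 0.05 (0.00% of all genes), and 7 of 30 had an unadjusted p under 0.05, against 6.87% of all genes. COL1A1, COL11A1 and COL27A1 were higher (3 of 30, against 3.10%), and COL6A1, COL6A2, COL7A1 and COL18A1 were lower (4 of 30, against 3.77%). COL11A1 again rested on few counts and on a filter passed mostly through knockdown samples. The median log2FC over the 30 chains was -0.25, against -0.0037 over all genes. COL1A1 passed the adjusted threshold with DESeq2 and with edgeR's likelihood ratio test, and 5 chains did so without the filter. How many of all genes passed there is not given for this hairpin, so these calls have no background. Without the filter, 392 of 21349 genes passed in the knockdown comparison. The count of chains at an unadjusted p under 0.05 was 7 with all samples. That count was 4 without TRC-1 or without TRC-2, 3 without KD1-2 and 6 without both TRC-2 and KD1-1.

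In sh-MIR100HG-2, 0 chains passed the adjusted threshold (0.00% of all genes), and 8 of 30 had an unadjusted p under 0.05, against 8.86%. COL1A1, COL27A1 and COL17A1 were higher (3 of 30, against 3.71%), and COL7A1, COL9A3, COL10A1, COL15A1 and COL18A1 were lower (5 of 30, against 5.15%). The adjusted threshold was passed by COL1A1 and COL7A1 with DESeq2 and by COL1A1 and COL10A1 with edgeR's likelihood ratio test. Without the filter 4 chains passed, COL22A1 among them. These calls also have no count of all genes beside them. The count of chains at an unadjusted p under 0.05 was 8 with all samples. The median log2FC was -0.37, against -0.04 over all genes, and the count was 5 without TRC-1 and 7 without both TRC-2 and KD1-1. COL1A1 had a log2FC of 1.30 ± 0.23 in sh-MIR100HG-1 and 1.91 ± 0.23 in sh-MIR100HG-2 (SE, adjusted p = 0.714 and 0.322 by edgeR). COL18A1 stood at -0.96 ± 0.25 and -0.98 ± 0.25 (SE). In all, 4 chains had a log2FC above 0 with both hairpins and 15 below 0 with both. Over all 15372 genes, 7733 were below 0 in sh-MIR100HG-1 and 8326 in sh-MIR100HG-2. The count of all genes below 0 with both is not given. Because the controls are shared, agreement in sign is not independent support, and the split is a description only.

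The hairpins were then compared with each other, a comparison that uses no control sample. Again 0 chains passed the adjusted threshold (0.00% of all genes), and 6 of 30 had an unadjusted p under 0.05, against 9.45%. DESeq2 also passed 0 chains, edgeR's likelihood ratio test passed COL10A1, and 6 chains, COL22A1 among them, passed without the filter. How many of all genes passed with these settings is not given, so these calls have no background. COL1A1, COL6A1, COL6A2, COL8A1 and COL17A1 were higher in sh-MIR100HG-2 (5 of 30, against 3.34%), and COL10A1 was lower (1 of 30, against 6.12%). COL17A1, a hemidesmosome collagen of epithelial cells, was at 36.7, 53.4, 26.5, 51.5, 73.2 and 80.8 CPM. Both KD2 samples were above the other 4, and the log2FC between the hairpins was 0.98 ± 0.34 (SE, adjusted p = 0.509 by edgeR). For COL1A1 it was 0.61 ± 0.22 (SE, adjusted p = 0.509 by edgeR), for COL6A1 0.92 ± 0.39 and for COL8A1 0.71 ± 0.29 (SE). With all samples, the count of chains at an unadjusted p under 0.05 was 6. The count was 2 without KD1-2, 10 without KD2-2 and 6 without both TRC-2 and KD1-1. Samples of the same replicate number deviated together between these 2 groups (correlation 0.50 across genes), and a fit blocked on that number gave 7.

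The let-7 matches were spread over chains on both sides. Of the 9 tested chains with a let-7 match, 5 had a log2FC above 0 after knockdown and 4 below 0, from 1.60 for COL1A1 to -1.30 for COL3A1. Of the 19 tested chains with a miR-29 match, 8 were above 0 and 11 below. The 4 tested chains with a match to the sh-MIR100HG-1 arm were COL24A1, COL4A4, COL4A6 and COL10A1, all with a log2FC below 0 for the mean of both hairpins. In sh-MIR100HG-1 itself COL24A1 (0.53) and COL10A1 (1.21) were above 0 and COL4A4 (-1.002) and COL4A6 (-0.99) below. The 2 with a match to the sh-MIR100HG-2 arm were COL1A1 and COL27A1, both above 0 for the mean and in sh-MIR100HG-2 itself (1.91 and 0.74).

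Genes that make and handle collagen were read from 4 lists. In the list for synthesis and secretion, 2 of 23 had an unadjusted p under 0.05 in the knockdown comparison (8.70%, against 7.68% of all genes), and the median log2FC was 0.07. COLGALT1, which glycosylates collagen hydroxylysine, was higher at 205, 284, 308, 355, 411 and 514 CPM (log2FC 0.68 ± 0.21, SE, adjusted p = 0.538 by edgeR). FKBP10, a collagen prolyl isomerase of the endoplasmic reticulum, was lower at 1.06, 1.56, 0.572, 0.283, 0.705 and 0.280 CPM. For COLGALT1 all 4 knockdown samples lay above both controls and for FKBP10 all 4 lay below.

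Among propeptide cleavage and cross-linking genes, 2 of 11 tested (of 13 listed) reached an unadjusted p under 0.05 (18.2%, against 7.68% of all genes). Both were lower, and the list's median log2FC was -0.25. ADAMTS14, a procollagen N-proteinase, was at 1.94, 2.06, 0.918, 0.401, 0.815 and 0.899 CPM, below both controls in all 4 knockdown samples (log2FC -1.40 ± 0.44, SE, adjusted p = 0.538 by edgeR). LOXL4, a lysyl oxidase that cross-links collagen, was at 108, 335, 87.5, 79.5, 143 and 159.5 CPM. TRC-2 stood apart there and TRC-1 lay within the knockdown range.

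For fibril-associated proteins it was 1 of 6 tested (of 9 listed; 16.7%, against 7.68% of all genes), with a list median of -0.12. This gene was TNXB, at 26.0, 38.8, 20.4, 10.6, 25.6 and 10.3 CPM, with KD1-2 and KD2-2 lowest. Receptors had 0 of 9 tested (of 10 listed) at an unadjusted p under 0.05, against the same 7.68%, with a median of -0.38. Several genes of these lists, chosen after their values were seen, had KD1-2 and KD2-2 apart from the other 4 samples. THBS1, a matricellular thrombospondin, was at 1433, 1136, 1263, 3630, 1164 and 3842 CPM. MRC2, an endocytic collagen receptor, was at 50.2, 103, 44.4, 13.3, 66.0 and 20.8 CPM. The integrin genes ITGA1 and ITGA10 were also lowest in KD1-2 and KD2-2. ITGA1 was at 43.6, 44.2, 43.2, 29.4, 51.7 and 18.7 CPM, and ITGA10 at 17.3, 21.2, 29.8, 8.38, 17.8 and 4.97 CPM. Not all receptor genes followed this order: ITGA2 was highest in KD1-2 (503 CPM) and lowest in KD2-2 (294 CPM). The part of this replicate difference in the results was not tested.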

How the data were processed

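Raw counts per gene, deposited without normalization, were used for 6 samples in 3 groups of 2 biological replicates. According to the methods and the processing notes, the authors mapped reads to GRCh37 with STAR (version 2.5.2a in the notes) and counted them over exons of a GENCODE annotation with FeatureCounts; the strand setting and the counting of read mates are not given in the sources used here. Odd numbers made up 30.8% to 34.6% of counts from 1 to 19, against 48.0% to 49.3% of counts of 200 or more, so the precision of low counts is uncertain, and intervals and bounds cover counting error only. Symbols came from a later GENCODE annotation of the same build (26966 of 27745 genes matched).

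Genes with fewer than 5 counts in at least 3 samples were removed (12373), and 15372 were tested. TMM normalization and the quasi-likelihood test (glmQLFit, glmQLFTest) of edgeR 4.0.16 in R 4.3.3 were used in 1 fit of 3 groups (3 residual degrees of freedom), with Benjamini-Hochberg adjustment over all genes tested. The common biological coefficient of variation was 27.8%. Levels between genes are CPM divided by the deposited gene length in kilobases. Exact permutation tests compared means of unlogged CPM or ratios and were two-sided over 15 splits. The fit was tested on simulated counts with less spread than these data and with large changes only. That test does not show that changes of the sizes reported here would be found.

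Described by sample are the 8 chains highest per kilobase, every chain at an unadjusted p under 0.05 in any comparison, and their partners. Of the other genes of collagen synthesis and handling, those at that p in the knockdown comparison are described. THBS1, MRC2, ITGA1, ITGA10 and ITGA2 were added after their values were seen. The members, lists and tests were chosen with earlier results of these data known. Alternatives were DESeq2 1.42.0, edgeR's likelihood ratio test, other normalizations, no filter, a replicate block and leaving out libraries. Seed matches were searched with Python 3.11.15 in the 3′UTR of 1 annotated transcript per gene (GRCh37). The sequence around 1 further match is not reported here.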

Additional observations from a re-analysis of the deposited data

Results flagged for a closer look

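COL4A6 was flagged because KD1-1 stood apart from the other 3 knockdown samples, at 0.256 CPM against 0.771 to 0.803 CPM. The gap made up 0.943 of the range of the 4 samples, on counts of 17 to 40. This gap was looked for in each of the 30 tested chains, and chance flags about 1 in 20. COL10A1 was flagged because the hairpins lay on opposite sides of both controls: KD1-1 and KD1-2 had 20 and 12 counts, both KD2 samples had 0, and the controls had 8 and 6. The fitted log2FC between the hairpins was -6.96 (adjusted p = 0.509 by edgeR), a value that depends on the prior count because 1 group is at 0, so the difference did not pass the test.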

How the results depend on the processing

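The number of collagen chains at an adjusted p of 0.05 or below was 0 in each comparison and depended on the tool and the filter. Counts over all genes are given below for knockdown against control alone, so the chain counts of the other comparisons have no background beside them. Without the filter on low counts the number of chains was 5 for knockdown (COL1A1, COL6A2, COL6A3, COL18A1 and COL22A1, with 392 of 21349 genes passing). For sh-MIR100HG-1 it was 5, for sh-MIR100HG-2 4 and between the hairpins 6. With edgeR's likelihood ratio test it was 2 (COL1A1 and COL18A1, with 109 of 15372 genes passing), 1, 2 and 1. With DESeq2 it was 2 (the same 2 chains, with 129 of the 15372 genes given to it passing), 1, 2 and 0. For COL1A1 the adjusted p was 1.45e-06 without the filter, 4.22e-06 by the likelihood ratio test and 8.01e-09 by DESeq2, and for COL18A1 it was 0.0032, 0.0223 and 0.0285. That of COL6A2 was 0.0222 without the filter. Leaving out 1 library at a time gave 0 chains at the adjusted threshold in each comparison. At an unadjusted p under 0.05 it gave 4 to 11 chains for knockdown, 3 to 8 for sh-MIR100HG-1, 5 to 8 for sh-MIR100HG-2 and 2 to 10 between the hairpins, where no filter gave 10. When 1 library was left out, the log2FC after knockdown changed sign for COL4A1 (-0.022 to 0.55), COL4A2 (-0.35 to 0.31), COL5A1 (-0.12 to 0.51), COL6A1 (-1.08 to 0.22) and COL8A1 (-0.18 to 0.35), of which COL8A1 also did so with library totals alone (-0.00995). Leaving out TRC-2 and KD1-1 together, chosen after the data were seen, gave 0.26 for COL4A2 and 0.18 for COL6A1. Library totals alone moved the median log2FC of all genes to -0.12 and that of the collagen chains to -0.49. Replicate numbers did not pair the samples in all groups: the correlation of deviations was -0.21 and 0.02 between the controls and either hairpin group, and 0.50 between the hairpin groups. With the replicate block, 0 chains passed the adjusted threshold and 10, 10, 7 and 7 had an unadjusted p under 0.05. With the control numbers crossed, added after the data were seen, these counts were 0 and 9 in each comparison. The causes of these changes were not tested. Shares of all genes at an unadjusted p under 0.05 are not given for these settings, so the counts are not set against a background. With 2 samples a group, the exact permutation test could not go below 0.0667.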
